A study of Mus musculus with 8 samples.

Results

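The genes described here are 48 genes of DNA replication in S phase and of the E2F transcription factors that govern them. Their rows were taken from the count table by gene symbol, and all 48 were found among its 24421 rows. The libraries came from KPCY cells, mouse pancreatic cancer cells that the labels call male. In the knockdown group (4 libraries) the cells stably carried a lentiviral vector that inhibits miR-27a-3p. In the control group (4 libraries) they carried a lentiviral vector with a scrambled sequence. Both lines had been selected with 2 µg/mL puromycin for 7 days and were grown in DMEM with 4.5 g/L glucose and 10% fetal bovine serum, and RNA was isolated 24 h after seeding. The question is which transcripts of these genes differed between the lines.

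DNA is copied once per cell cycle. In G1 the origin recognition complex, Cdc6 and Cdt1 load the MCM helicase onto origins (licensing), and in S phase Cdc45 and the GINS complex turn it into a moving fork, where polymerases, the sliding clamp Pcna and its loader, the RFC complex, copy the strands. Cyclin E with Cdk2 drives entry into S phase by releasing activating E2F factors from the Rb family of repressors, and many genes of replication, nucleotide supply and chromatin assembly are E2F targets. E2f7 and E2f8 are atypical family members that repress the same targets late in S phase.

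MicroRNAs act by base pairing of bases 2 to 8, the seed, with sites in target transcripts, mostly in the 3′ UTR. The inhibited microRNA and its paralogue are shown from RefSeq (GRCm38.p6) because the search for sites in the members rests on them, with the seed in capitals, 5′ to 3′.
mmu-miR-27a-3p (chr8:84208727-84208747, plus strand): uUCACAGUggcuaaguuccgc
mmu-miR-27b-3p (chr13:63300760-63300780, plus strand): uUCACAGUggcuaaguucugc
The seed letters are the same in both. Mature microRNAs are not held by libraries of this kind, and the row of the gene Mir27a held a single count over all 8 libraries, so the inhibition itself could not be checked in these counts.

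Library totals ran from 19165513 to 23542275 counts, and 11797 genes had enough counts to be tested, all 48 members among them. Pairs of libraries within a group differed by a chi-square of 1.73 to 2.35 per gene, other than the pairs with scrambled replicate 2, which gave 5.19 to 5.36, so that library stood apart from the others. Of the ductal epithelial markers, all 8 were detected, with summed levels of 10700 to 11700 CPM (counts per 1000000 after scaling of the libraries) in scrambled and 11400 to 11700 CPM in knockdown libraries. Of 8 leukocyte, 8 fibroblast, 6 endothelial and 8 acinar and islet markers, 7, 8, 6 and 7 were under 1 CPM, and no list's sum passed 4.4 CPM in any library. Among them Adgre1, Lyz2, Col1a2, Pdgfrb, Dcn, Lum, Emcn, Cpa1, Pnlip, Amy2a5, Ins1 and Ins2 were at 0 in all 8 libraries. The labels name 1 stable line per group, so an effect of the inhibitor and any other difference between the 2 lines cannot be told apart, and p-values here gauge only how far cultures or libraries of 1 line scatter. In bulk RNA, fewer cells in S phase and less RNA per cell cannot be told apart either.

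Most of these genes were modestly lower in the knockdown line. Of the 48, 33 fell, 2 rose (Ccne1 and Gins4) and 13 did not pass the test at an adjusted p under 0.05 in edgeR's quasi-likelihood test. Over all 11797 tested genes, 24.1% were called lower and 23.8% higher (47.9% in either direction), against 68.8% and 4.17% of the members. The median log2 fold change, knockdown over scrambled, was −0.189 over the members and 0.0017 over all tested genes. Member changes ran from −0.57 for Orc1 to 0.27 for Ccne1, so none reached a fold of 1.5 in either direction.

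The groups did not overlap, with every knockdown library below every scrambled one, in 33 of the 48 (21.1% of all tested genes), and Ccne1, Gins4 and Tyms showed the opposite arrangement (21% of all tested genes). The median member stood at −0.197, −0.178, −0.202 and −0.176 (log2 over the scrambled mean) in knockdown replicates 1 to 4. Spread within a group was small, with a median coefficient of variation of 2.96% in scrambled and 3.02% in knockdown libraries. Gins3, a low-level GINS subunit, varied most, at 9.99% and 12.8%. Without scrambled replicate 2 the counts were 32 lower and 2 higher (25.3% and 25.3% of tested genes). Tested against a fold of 1.2 in place of no change, 10 members were lower, namely Orc1, Cdc6, Cdc45, Gins1, Rfc4, Lig1, Uhrf1, Dnmt1, E2f1 and E2f8, and 0 higher (4.43% and 4.95% of tested genes).

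**Figure D1:**
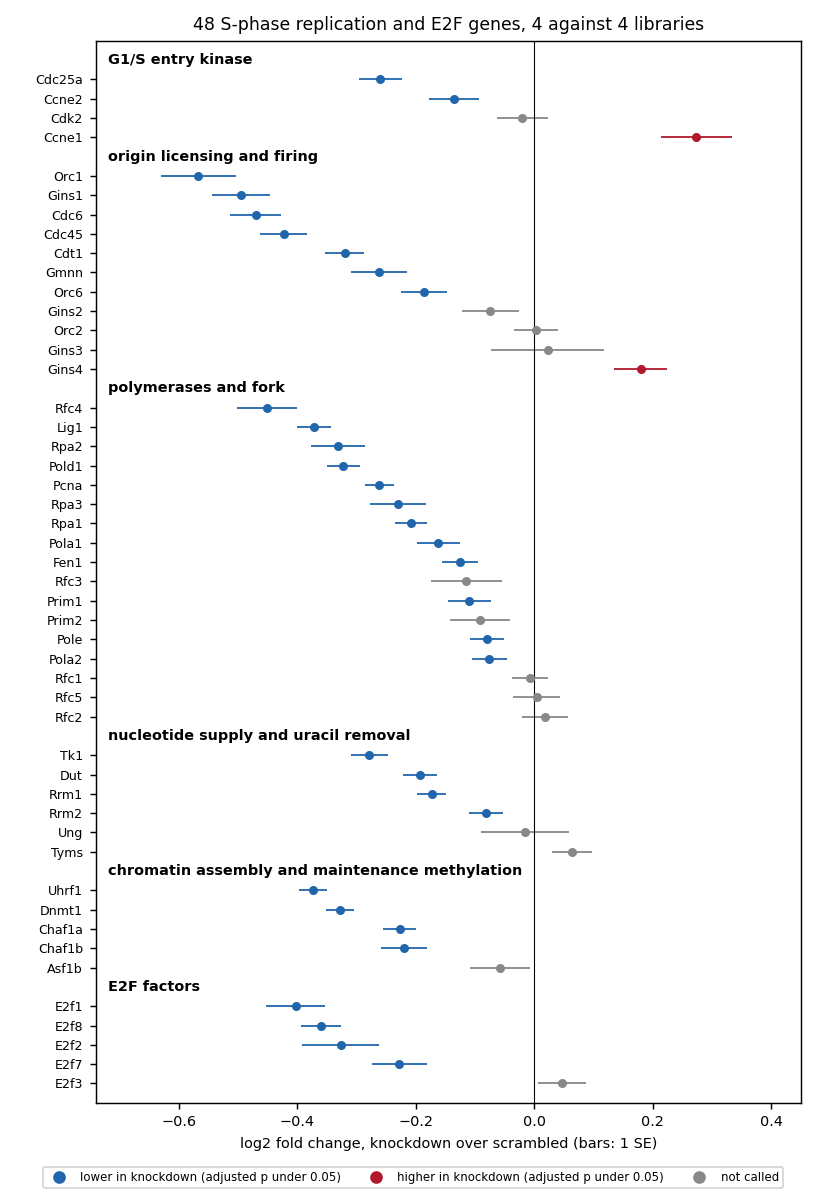
Log2 fold change of each of the 48 genes (x axis, knockdown over scrambled, points with bars of 1 standard error), grouped by role on the y axis. In every group most points lie left of 0, from −0.57 for Orc1 upward, and Ccne1 and Gins4 are the 2 genes called higher (Gins4 turned to −0.03 relative to its chromosome).

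The decrease ran through the roles unevenly. Median log2 fold changes were −0.326 over 5 E2F factors (4 lower), −0.262 over 11 genes of origin licensing and firing (7 lower, 1 higher), −0.227 over 5 genes of chromatin assembly and maintenance methylation (4 lower), −0.127 over 6 genes of nucleotide supply and uracil removal (4 lower), −0.124 over 17 polymerase and fork genes (12 lower) and −0.0776 over 4 genes of the G1/S entry kinase (2 lower, 1 higher). Over all tested genes 24.1% were called lower and 23.8% higher. The order of the roles was not fixed. Relative to the median of each gene's chromosome, the medians were −0.276, −0.356, −0.242, −0.165, −0.185 and −0.0631 in the same sequence of roles. On that scale the licensing and firing genes stood lowest. Whether the roles differ from each other was not tested.

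Of the cyclin E-Cdk2 group, which starts S phase, both cyclins were called, in opposite directions, though Ccne2 not relative to its chromosome. Ccne1 (cyclin E1) stood at 26.5, 31.8, 26.4 and 29.1 CPM in scrambled replicates 1 to 4 and at 32.0, 34.8, 34.9 and 35.6 CPM in knockdown replicates 1 to 4. Every knockdown value was above every scrambled one, though scrambled replicate 2 came close to the lowest of them. The rise was 1.21-fold (log2 0.27 ± 0.06 SE, adjusted p = 6.01e-04).

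Ccne2 (cyclin E2) went from 47.3, 45.4, 44.5 and 46.1 CPM to 42.4, 42.6, 40.1 and 41.7 CPM, without overlap, a fall of 0.14 on the log2 scale (± 0.04 SE, adjusted p = 0.0113). Relative to its chromosome, Ccne2 did not pass (log2 −0.085, adjusted p = 0.115). Within a library, counts of Ccne1 per count of Ccne2 were 0.561 to 0.701 in scrambled and 0.755 to 0.870 in knockdown libraries (geometric means 0.619 and 0.823). This ratio needs no scaling between libraries. The exact two-sided permutation p was 0.0286, the smallest that 4 against 4 libraries allow, and 0.0952 after adjustment over the 10 ratios examined. Part of the Ccne2 exons (17.4% of their bases) overlaps Ints8 on the other strand, and the strand setting of the counting is not given in the sources used here.

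Cdk2, the kinase itself, was at 49.8, 50.7, 50.1 and 52.2 CPM in scrambled and 50.5, 49.8, 46.5 and 53.1 CPM in knockdown replicates, with the groups intermixed (log2 −0.02 ± 0.04 SE, adjusted p = 0.735). Cdc25a, the phosphatase that removes inhibitory phosphates from Cdk2, went from 87.6, 90.8, 82.2 and 83.7 CPM to 71.7, 71.0, 70.7 and 73.9 CPM. All 4 knockdown libraries lay below the lowest scrambled one, and Cdc25a fell by 0.26 on the log2 scale (± 0.04 SE, adjusted p = 4.26e-06).

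Among origin licensing genes 7 of 11 fell, Cdc6 and Cdt1 among them. Cdc6, the ATPase that brings the MCM ring to the origin recognition complex, was at 77.0, 68.5, 77.8 and 78.5 CPM in scrambled and at 55.5, 53.1, 55.9 and 53.7 CPM in knockdown libraries. Scrambled replicate 2 was the low one of its group, and the groups stayed apart (1.39-fold lower, log2 −0.47 ± 0.04 SE, adjusted p = 7.03e-09).

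Cdt1, which carries the MCM ring to the origin, was at 79.8, 82.4, 81.6 and 79.6 CPM and at 65.3, 64.4, 64.4 and 64.9 CPM, a fall of 0.32 on the log2 scale (± 0.03 SE, adjusted p = 5.13e-08). Its knockdown values were the tightest of any member, with a coefficient of variation of 0.624%. Gmnn (geminin), which binds Cdt1 and blocks relicensing, fell by 0.26 (± 0.05 SE, adjusted p = 8.64e-05), from 69.3 ± 5.24 to 57.7 ± 2.55 CPM (SD, n = 4). The ratio of Cdt1 to Gmnn counts had geometric means of 1.17 and 1.12 (exact permutation p = 0.314, adjusted p = 0.393 over the 10 ratios).

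The 3 subunits of the origin recognition complex among the members parted. Orc1, the subunit made anew in each cell cycle, had the largest change of the 48, from 26.4 ± 1.57 to 17.8 ± 1.09 CPM (SD, n = 4; 1.48-fold lower, log2 −0.57 ± 0.06 SE, adjusted p = 1.28e-07). Orc6 fell by 0.19 (± 0.04 SE, adjusted p = 4.35e-04). Orc2, a core subunit that stays on chromatin through the cycle, was at 93.1, 94.6, 91.3 and 89.4 CPM in scrambled and 87.3, 89.8, 93.6 and 98.2 CPM in knockdown libraries. The scrambled range lies inside the knockdown range (log2 0.00 ± 0.04 SE, adjusted p = 0.95). Orc2 shares 29.8% of its exon bases with Nif3l1 on the other strand.

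Of the factors that fire the origin, Cdc45 was at 56.6, 56.4, 57.7 and 54.9 CPM in scrambled libraries and 42.6, 42.1, 42.0 and 41.5 CPM in knockdown libraries. Both groups were tight and far apart (1.34-fold lower, log2 −0.42 ± 0.04 SE, adjusted p = 8.9e-09). Cdc45 joins the MCM ring and GINS in the active helicase.

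The 4 GINS subunits, which form 1 complex in equal numbers, did not move as a set. Gins1 was at 39.0, 36.6, 39.1 and 37.0 CPM in scrambled and 25.6, 26.9, 27.7 and 27.6 CPM in knockdown libraries. The groups were far apart, and Gins1 fell by 0.49 on the log2 scale (± 0.05 SE, adjusted p = 2.71e-08), a 1.41-fold decrease.

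Gins4 was at 43.1, 43.1, 40.3 and 39.3 CPM in scrambled and 46.2, 45.3, 48.3 and 47.8 CPM in knockdown libraries. It rose 1.13-fold without overlap (log2 0.18 ± 0.04 SE, adjusted p = 0.00215), though not relative to its chromosome (log2 −0.03). Gins2 (35.6 ± 0.355 and 33.8 ± 1.82 CPM, SD, n = 4) and Gins3 (10.6 ± 1.06 and 10.8 ± 1.37 CPM) did not pass the test, with adjusted p = 0.219 and 0.866. Per kilobase of exon, Gins4 stood at 30.7 and 34.8 CPM and Gins1 at 25 and 17.8 CPM in scrambled and knockdown libraries, so the distance between them widened. Gins2, Gins3 and Gins4 lie on chromosome 8 and Gins1 on chromosome 2. Gins2 shares 67.3% of its exon bases with Gse1 on the other strand.

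**Figure D2:**
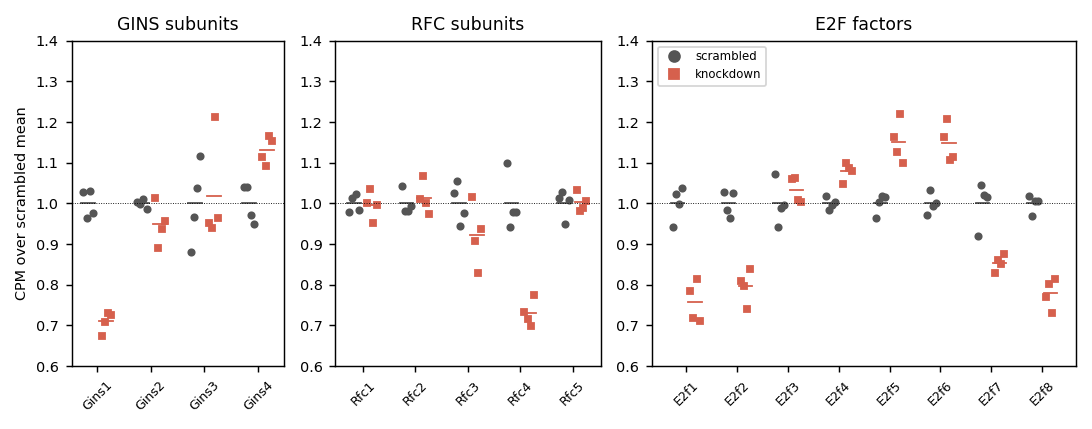
CPM of each library over the gene's scrambled mean (y axis) for GINS subunits, RFC subunits and 8 E2F factors (x axis); dots are scrambled and squares knockdown libraries, and lines are group means. Gins1, Rfc4 and E2f1, E2f2, E2f7 and E2f8 lie below 1 in every knockdown library, while Gins4, E2f3, E2f4, E2f5 and E2f6 lie above it. Of the latter, E2f3 did not pass the test, and Gins4 and E2f4 turned to −0.03 and −0.10 (log2) relative to their chromosome.

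At the fork, 12 of 17 genes fell and none rose. Lig1, the ligase that seals Okazaki fragments, was at 233, 243, 226 and 234 CPM in scrambled and 176, 176, 186.5 and 184 CPM in knockdown libraries. The lowest scrambled value was well above the highest knockdown value (1.29-fold lower, log2 −0.37 ± 0.03 SE, adjusted p = 3.2e-10).

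Pold1, the catalytic subunit of the lagging-strand polymerase delta, went from 145, 143, 144 and 143 CPM to 113, 119, 115 and 113 CPM. Pole, its leading-strand counterpart in polymerase epsilon, went from 137 ± 2.3 to 129.8 ± 2.59 CPM (SD, n = 4). Pold1 fell by 0.32 (± 0.03 SE, adjusted p = 3.12e-09) and Pole fell by 0.08 (± 0.03 SE, adjusted p = 0.0231) on the log2 scale. Pold1 lies on chromosome 7 and Pole on chromosome 5. Relative to the median of its own chromosome, Pold1 was at −0.26 and Pole at −0.22 (log2), so most of the distance between them was absent on that scale.

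Pcna, the sliding clamp, was at 282, 295, 281 and 290.4 CPM in scrambled and 233, 243, 241 and 241.5 CPM in knockdown libraries, with no overlap (log2 −0.26 ± 0.03 SE, adjusted p = 1.57e-08). A processed pseudogene, Pcna-ps2, matches it at 99.2% over 781 bases, so reads could have been split between the rows.

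The clamp loader showed the same kind of unevenness as GINS. Rfc4, a small RFC subunit, was at 58.5, 50.1, 52.0 and 52.1 CPM in scrambled and 39.0, 38.1, 37.2 and 41.2 CPM in knockdown libraries. Scrambled replicate 1 was the high one, and all 4 knockdown libraries were below the scrambled range (1.37-fold lower, log2 −0.45 ± 0.05 SE, adjusted p = 1.3e-07).

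Rfc5 was at 56.2, 57.1, 52.6 and 55.9 CPM in scrambled and 57.3, 54.4, 54.8 and 55.8 CPM in knockdown libraries, where most values lie in the range shared by both groups (log2 0.00 ± 0.04 SE, adjusted p = 0.937). Rfc1, the large subunit, Rfc2 and Rfc3 also did not pass, with log2 changes of −0.01, 0.02 and −0.11 and adjusted p of 0.865, 0.73 and 0.117. Rfc1, Rfc2, Rfc3 and Rfc5 all lie on chromosome 5, and Rfc4 on chromosome 16. The within-library ratio of Rfc1 to Rfc4 counts had geometric means of 2.82 and 3.84 without overlap (exact permutation p = 0.0286, adjusted p = 0.0952 over the 10 ratios).

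The 3 subunits of the single-strand binding complex RPA all fell, with log2 changes of −0.21 for Rpa1 (adjusted p = 1.05e-06), −0.33 for Rpa2 (adjusted p = 3.47e-06) and −0.23 for Rpa3 (adjusted p = 3.14e-04). In polymerase alpha-primase, which lays the first primers, Pola1 (log2 −0.16, adjusted p = 7.72e-04), Prim1 (log2 −0.11, adjusted p = 0.0159) and Pola2 (log2 −0.08, adjusted p = 0.0358) fell. The remaining subunit, Prim2, was at 38.7 ± 2.37 and 36.3 ± 1.26 CPM (SD, n = 4) and did not pass (log2 −0.09, adjusted p = 0.139). The 2 weakest of these calls rested on single libraries, with Prim1 lost without knockdown replicate 2 and Pola2 lost without scrambled replicate 1, 3 or 4 or knockdown replicate 2, 3 or 4. Pole was lost without scrambled replicate 1 or knockdown replicate 2 or 3, and Rfc3 passed as lower without knockdown replicate 1. Fen1, the flap endonuclease of Okazaki fragments, fell by 0.12 (adjusted p = 0.00177). Fen1 shares 78.8% of its exon bases with the antisense gene Gm10143, and with the strand setting of the counting not given, its row may hold reads of that gene.

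In nucleotide supply, salvage and reductase genes fell and Tyms did not pass. Tk1, the thymidine kinase of S phase, was at 166, 174, 162 and 164.5 CPM in scrambled and 131, 142, 141 and 135 CPM in knockdown libraries. It fell by 0.28 on the log2 scale without overlap (± 0.03 SE, adjusted p = 1.4e-07). Dut, which breaks down dUTP before it can enter DNA, was at 139, 145, 140.2 and 144 CPM and at 123, 128, 124 and 123 CPM. The groups were again separate (log2 −0.19 ± 0.03 SE, adjusted p = 8.04e-06).

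Of the subunits of ribonucleotide reductase, which makes deoxynucleotides, Rrm1 and Rrm2 fell, and Rrm2b, an alternative small subunit outside the 48 that was named after its value had been seen, rose (log2 0.18, adjusted p = 0.0218). Rrm1 was at 390.4, 412.5, 391 and 394 CPM in scrambled and 354, 348, 344 and 362 CPM in knockdown libraries, a log2 change of −0.17 (± 0.02 SE, adjusted p = 5.23e-06). Rrm2 was at 494.5, 540.1, 483 and 487 CPM and at 479, 476, 467 and 472.5 CPM. The Rrm2 groups almost touch, with scrambled replicate 2 far above the rest (log2 −0.08 ± 0.03 SE, adjusted p = 0.023), and Rrm2 no longer passed the test without that library, nor without knockdown replicate 3 or 4. The ratio of Rrm2 to Rrm1 counts had geometric means of 1.26 and 1.35 (exact permutation p = 0.0571, adjusted p = 0.143).

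Tyms, the thymidylate synthase, was at 72.0 ± 1.25 and 75.2 ± 0.994 CPM (SD, n = 4), with every knockdown library above every scrambled one, and did not pass the test across all genes (log2 0.06 ± 0.03 SE, adjusted p = 0.12). Ung, which cuts uracil out of DNA, was at 13.7, 13.8, 14.1 and 14.1 CPM in scrambled and 14.7, 14.9, 12.2 and 13.4 CPM in knockdown libraries. The knockdown values of Ung spread to both sides of the scrambled ones (log2 −0.02 ± 0.07 SE, adjusted p = 0.88). Tyms and Ung lie on chromosome 5.

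Of the genes that rebuild chromatin behind the fork, Uhrf1 and Dnmt1 gave the smallest p-values of the 48. Uhrf1, which recognises hemimethylated DNA and brings in Dnmt1, was at 360.4, 348, 361.5 and 355.5 CPM in scrambled and 270.3, 277, 271 and 282 CPM in knockdown libraries. No scrambled library came near the knockdown range (1.3-fold lower, log2 −0.37 ± 0.02 SE, adjusted p = 1.77e-11). A processed pseudogene, Gm5648, matches Uhrf1 at 98.3% over 1590 bases.

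Dnmt1, the maintenance DNA methyltransferase, was at 466, 456, 461 and 442 CPM and at 370.4, 358, 361 and 364 CPM, again without overlap (1.25-fold lower, log2 −0.33 ± 0.02 SE, adjusted p = 9.66e-11). The Uhrf1 to Dnmt1 count ratio was 0.782 and 0.757 in scrambled and knockdown (geometric means, exact permutation p = 0.114, adjusted p = 0.19).

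Chaf1a and Chaf1b, subunits of the histone chaperone CAF-1, fell alike. Chaf1a was at 167.5, 158, 161 and 164 CPM in scrambled and 139, 141, 135 and 142 CPM in knockdown libraries (log2 −0.23 ± 0.03 SE, adjusted p = 7.04e-07). Chaf1b was at 71.1, 68.6, 66.2 and 66.0 CPM and at 57.3, 61.1, 56.7 and 58.4 CPM (log2 −0.22 ± 0.04 SE, adjusted p = 6.98e-05). Neither gene's groups overlapped, and their count ratio had geometric means of 2.40 and 2.38 (exact permutation p = 0.857). Chaf1a shares 52.5% of its exon bases with Ubxn6 on the other strand.

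Asf1b, the chaperone that hands histones to CAF-1, was at 47.6, 43.5, 46.9 and 47.7 CPM in scrambled and 40.3, 44.4, 45.9 and 47.8 CPM in knockdown libraries. Only knockdown replicate 1 was below the scrambled range, and the gene did not pass (log2 −0.06 ± 0.05 SE, adjusted p = 0.368). Asf1b lies on chromosome 8.

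Of the activating E2F factors, E2f1 and E2f2 fell and E2f3 did not pass. E2f1 was at 47.3, 51.4, 50.2 and 52.2 CPM in scrambled and 39.4, 36.1, 41.0 and 35.7 CPM in knockdown libraries (1.32-fold lower, log2 −0.40 ± 0.05 SE, adjusted p = 6.14e-07). E2f2 was at 19, 18.2, 17.8 and 18.9 CPM and at 14.9, 14.7, 13.7 and 15.5 CPM (1.25-fold lower, log2 −0.33 ± 0.07 SE, adjusted p = 2.62e-04). Both genes had wholly separate groups. E2f3 was at 68.1, 59.8, 62.7 and 63.2 CPM and at 67.3, 67.4, 64.0 and 63.7 CPM, with the knockdown values inside the scrambled range (log2 0.05 ± 0.04 SE, adjusted p = 0.367).

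The atypical repressors fell as well. E2f8 was at 126, 120.1, 125 and 125 CPM in scrambled and 95.6, 99.4, 90.6 and 101 CPM in knockdown libraries (1.28-fold lower, log2 −0.36 ± 0.03 SE, adjusted p = 1.25e-08). E2f7 was at 41.3, 46.9, 45.8 and 45.6 CPM and at 37.2, 38.7, 38.2 and 39.3 CPM (1.17-fold lower, log2 −0.23 ± 0.05 SE, adjusted p = 3.56e-04). The E2f8 groups were wide apart and the E2f7 groups were separated by a narrow gap below scrambled replicate 1.

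The balance of activator and repressor was read within libraries. E2f1 to E2f7 counts had geometric means of 1.12 in scrambled and 0.991 in knockdown libraries without overlap (exact permutation p = 0.0286, adjusted p = 0.0952). E2f1 to E2f8 counts had 0.405 and 0.393 (exact permutation p = 0.657, adjusted p = 0.73). None of the 10 ratios passed after adjustment, and 3 of them reached the smallest p that the design allows.

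**Figure D3:**
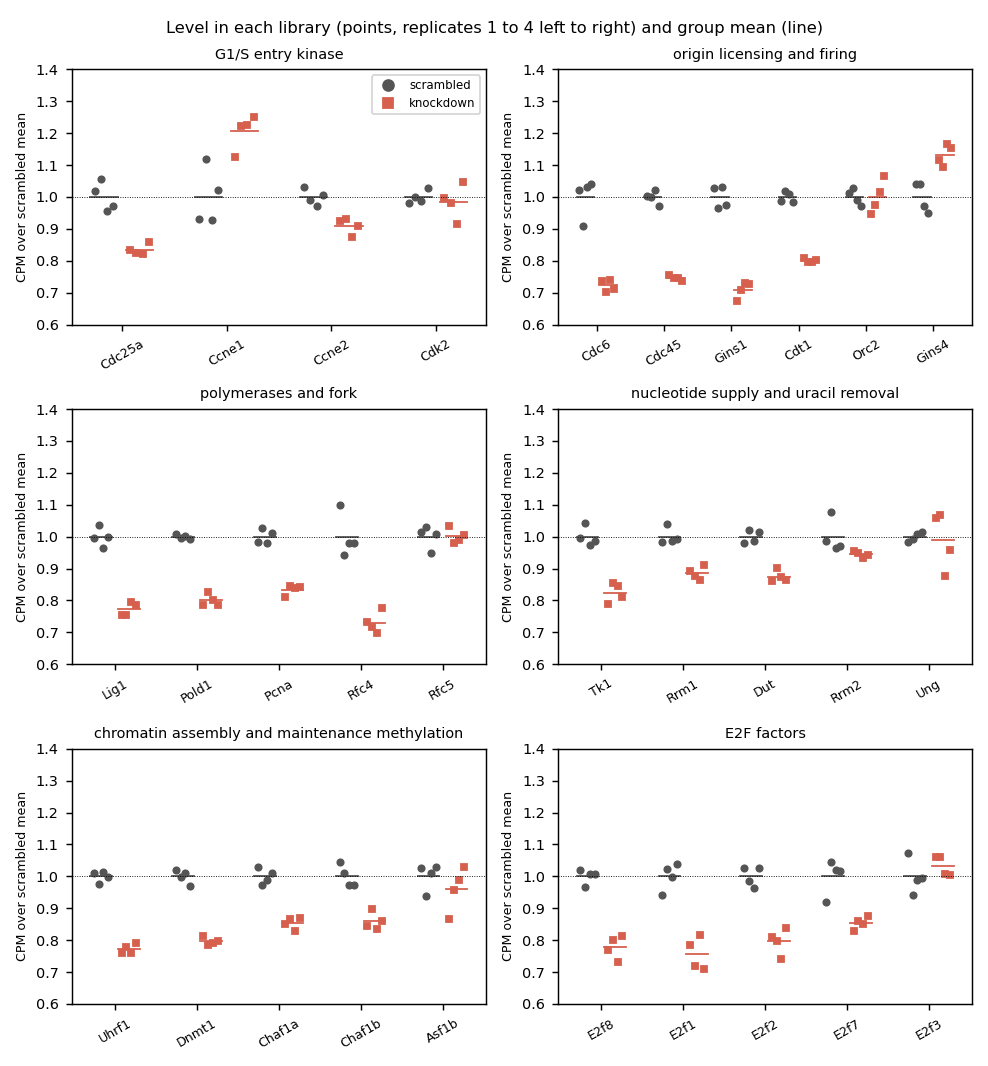
CPM of each library over the gene's scrambled mean (y axis) for 30 genes in 6 roles (x axis); dots are scrambled and squares knockdown replicates 1 to 4 from left to right, and lines are group means. Knockdown squares lie below all scrambled dots for most genes, overlap them for Cdk2, Orc2, Rfc5, Ung, Asf1b and E2f3, and lie above them for Ccne1 and Gins4.

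The canonical E2F site was searched in the promoters because replication genes are known as E2F targets and E2f1 and E2f2 were among the genes that fell. The window ran from 250 bases before to 50 bases after the RefSeq start (GRCm38.p6), and 40 of the 48 genes had an entry, without Ccne2, Gins1, Gins2, Gins4, Gmnn, Pole, Prim2 and Rfc2. The octamers TTTCCCGC, TTTGGCGC, TTTCGCGC and TTTGCCGC were searched on both strands. At least 1 was present in 12 of the 40 promoters (30%), in 388 of 9071 tested genes with an entry (4.28%) and in 744 of all 32851 entries (2.26%). The CCAAT box, also searched on both strands, was in 25 of the 40 (62.5%), against 39.2% of tested genes. No octamer overlapped a CCAAT box.

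Promoters with the octamer were those of Cdc25a, Cdk2, Cdc6, Cdt1, Orc1, Gins3, Pola1, Pold1, Rfc3, E2f2, E2f3 and E2f7. Of these 12 genes 8 fell and 4 did not pass (median log2 −0.243), and of the 28 promoters without it 21 genes fell and 1 rose (median −0.2), so most genes fell both with and without these letters in the window. The RefSeq start used and the start in GENCODE lay 466 bases apart for E2f1, 350 for Cdc6, 325 for Dut, 224 for Fen1, 120 for E2f2, 108 for Lig1 and 59 for Rpa1. Their windows did not reach the GENCODE start, so a site there could have been missed. Promoters of 3 genes that fell (Orc1, Cdc25a, Pold1) and of 2 that did not pass (E2f3, Rfc3) are shown to let both kinds be compared. Rfc3 was, however, called lower relative to its chromosome (log2 −0.25, adjusted p = 0.00163). The promoters are given on the strand of the gene, 5′ to 3′, with the octamers in capitals.
Orc1 promoter (chr4:108579204-108579503, plus strand): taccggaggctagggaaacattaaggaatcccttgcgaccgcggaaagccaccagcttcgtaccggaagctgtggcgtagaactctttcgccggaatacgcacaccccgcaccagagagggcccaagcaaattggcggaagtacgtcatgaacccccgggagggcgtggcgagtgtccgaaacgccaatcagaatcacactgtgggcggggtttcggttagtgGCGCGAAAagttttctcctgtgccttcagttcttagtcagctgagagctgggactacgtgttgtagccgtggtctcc
Cdc25a promoter (chr9:109875329-109875628, plus strand): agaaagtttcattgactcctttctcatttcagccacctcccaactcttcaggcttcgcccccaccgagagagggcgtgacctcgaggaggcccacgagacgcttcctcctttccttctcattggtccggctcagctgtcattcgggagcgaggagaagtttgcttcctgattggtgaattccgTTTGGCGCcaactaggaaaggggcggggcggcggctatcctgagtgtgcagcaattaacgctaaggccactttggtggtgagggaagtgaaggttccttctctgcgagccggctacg
Pold1 promoter (chr7:44548766-44549065, minus strand): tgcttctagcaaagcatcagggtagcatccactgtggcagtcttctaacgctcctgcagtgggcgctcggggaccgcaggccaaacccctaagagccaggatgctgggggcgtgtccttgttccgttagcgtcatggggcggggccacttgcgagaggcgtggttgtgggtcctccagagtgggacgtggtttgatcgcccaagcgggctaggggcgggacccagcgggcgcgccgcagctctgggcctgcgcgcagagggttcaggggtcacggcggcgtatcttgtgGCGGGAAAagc
E2f3 promoter (chr13:29986014-29986313, minus strand): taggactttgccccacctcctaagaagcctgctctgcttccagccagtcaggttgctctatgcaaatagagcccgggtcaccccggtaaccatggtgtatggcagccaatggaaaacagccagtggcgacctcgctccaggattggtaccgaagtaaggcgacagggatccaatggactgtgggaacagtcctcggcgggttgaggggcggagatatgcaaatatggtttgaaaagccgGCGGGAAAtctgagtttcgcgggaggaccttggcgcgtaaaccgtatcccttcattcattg
Rfc3 promoter (chr5:151651159-151651458, minus strand): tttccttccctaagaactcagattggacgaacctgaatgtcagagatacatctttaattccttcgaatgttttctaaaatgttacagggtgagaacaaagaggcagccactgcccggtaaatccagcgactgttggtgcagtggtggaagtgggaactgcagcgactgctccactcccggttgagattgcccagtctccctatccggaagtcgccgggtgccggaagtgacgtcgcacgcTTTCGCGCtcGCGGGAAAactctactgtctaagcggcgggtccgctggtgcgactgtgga
The first octamer base lay at −27 for Orc1, −67 for Cdc25a, 40 for Pold1, −11 for E2f3, and −10 and 1 for Rfc3, counted with the start as base 1. A match is a description of letters and not evidence of binding.

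Sites for miR-27 were rare in these genes. Searched in each gene's longest 3′ UTR in GENCODE, the 8mer ACTGTGAA was present in 1 of 48 members (2.08%) and in 6.41% of 11357 tested genes. A 7mer (ACTGTGA or CTGTGAA) or an 8mer was present in 8 members (16.7%), Dut, E2f3, E2f7, Rfc1, Rfc2, Rfc4, Rrm2 and Tyms, and in 29.5% of tested genes. Members had shorter 3′ UTRs, with a median of 867.5 bases against 1199 bases, and this was not matched.

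Of the 8 genes with a site 4 fell, none rose and 4 did not pass (median log2 −0.044), and of the 40 without one 29 fell, 2 rose and 9 did not pass (median −0.214). Over all tested genes 24.1% were lower and 23.8% higher. Rfc1, Rfc2 and Tyms, which have a site and did not pass, lie on chromosome 5, whose median log2 change was 0.137. Relative to that chromosome they were at −0.14, −0.12 and −0.07. The medians with and without a site were not matched for chromosome. Inhibiting a microRNA generally raises the transcripts it acts on directly, as background. The 8mer and 3 of the 7mers are shown on the strand of the transcript, the site in capitals with the neighbouring bases in lower case, with coordinates of the capitals in GRCm38.
E2f7 (8mer, chr10:110785465-110785472, plus strand): agaccaaaataACTGTGAAtgctacaccta
Rfc4 (7mer, chr16:23114038-23114044, minus strand): gcctttgtgcaACTGTGAtgcagcagcta
E2f3 (7mer, chr13:29908562-29908568, minus strand): tctccgaatccACTGTGAgtgggtgagtt
Rrm2 (7mer, chr12:24713951-24713957, plus strand): tgaggtagtttACTGTGAtctagcttcct
E2f7, Rfc4 and Rrm2 were lower in the knockdown line and E2f3 did not pass.

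The members that did not fall were concentrated on a pair of chromosomes, which were picked out after these values had been seen. On chromosomes 5 and 8 combined, 783 of 1408 tested genes were higher in the knockdown line (55.6%) and 112 lower (7.95%). Elsewhere 2003 of 10291 were higher (19.5%) and 2719 lower (26.4%). The median log2 change was 0.207 on chromosome 8 and 0.137 on chromosome 5.

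Of 13 members on these chromosomes, 3 fell (Orc6, Cdt1 and Pole), 1 rose (Gins4) and 9 did not pass (median −0.016). Of the other 35, 30 fell, 1 rose (Ccne1) and 4 did not pass (Cdk2, Orc2, Prim2 and E2f3, median −0.23). Taken relative to the median of its own chromosome, the median member was at −0.219, and 46 of 48 lay below 0, all but Ccne1 and E2f3. On that relative scale the members on chromosomes 5 and 8 had a median of −0.184 and the others −0.233.

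A fit with each gene's counts scaled to its chromosome median, an alternative added after seeing the data, called 39 members lower and Ccne1 higher (21.2% and 19.7% of all tested genes). All 17 fork genes were lower in it, Rfc5 with a log2 change of −0.13 (adjusted p = 0.0101) and Rfc2 with −0.12 (adjusted p = 0.0183). Gins4 was at −0.03 (adjusted p = 0.673), and Ccne2 no longer passed. What underlies the chromosome-wide differences was not tested.

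**Figure D4:**
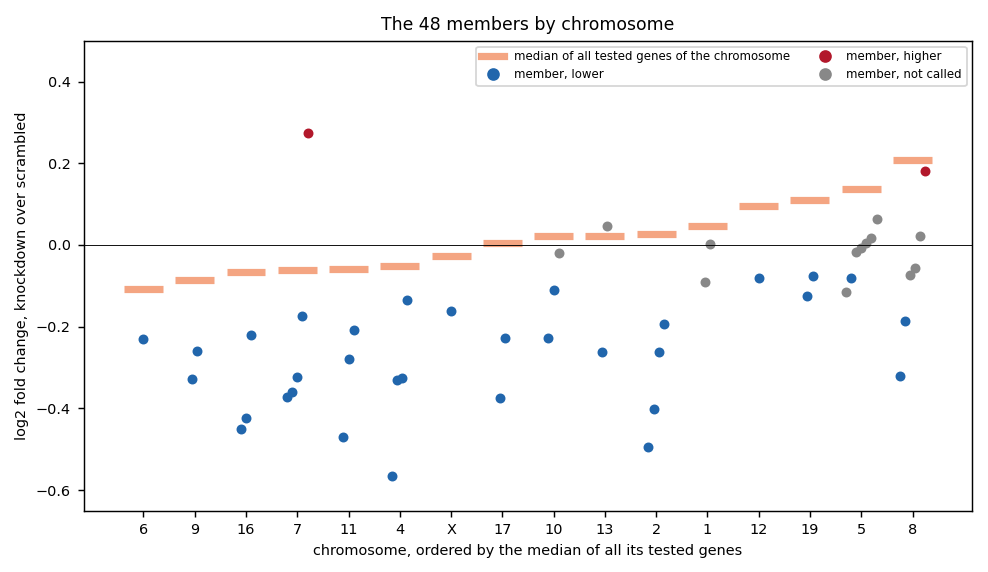
Log2 fold change, knockdown over scrambled (y axis), of the 48 genes by chromosome (x axis, ordered by the chromosome median, drawn as a bar). Points lie below the bar of their chromosome in 46 of 48 cases, and most grey points, which did not pass the test, sit on chromosomes 5 and 8, whose bars are the highest of those shown.

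Beyond the 48, a list of 59 other replication and E2F pathway genes had 32 lower, 12 higher and 15 that did not pass (median log2 −0.112), that is 54.2% lower and 20.3% higher against 24.1% and 23.8% of all tested genes. The share called higher is thus near that over all genes, and the genes named next as higher are single values. Mcm10, which helps to start the helicase, fell from 106 ± 3.28 to 80.4 ± 0.593 CPM (SD, n = 4; log2 −0.40, adjusted p = 7.63e-10). Topbp1, a scaffold of origin firing and checkpoint signalling, fell by 0.28 (adjusted p = 5.44e-09). Tipin, of the fork protection complex, fell by 0.37 (adjusted p = 6.52e-09), and Tonsl, which acts in repair at broken forks, fell by 0.49 (adjusted p = 1.02e-08).

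On the other side Orc5, an origin recognition subunit on chromosome 5, rose from 21.6 ± 1.32 to 28.7 ± 2 CPM (SD, n = 4; log2 0.41, adjusted p = 9.76e-06). Top1, the topoisomerase that relaxes DNA ahead of forks, rose by 0.17 (adjusted p = 7.11e-05). E2f6, a repressor of the family, rose by 0.20 (adjusted p = 5.1e-04), and Rnaseh2a, a subunit of the enzyme that removes ribonucleotides, on chromosome 8, by 0.22 (adjusted p = 5.37e-04). Relative to their chromosomes, Orc5 (log2 0.27, adjusted p = 0.00115) and Top1 (log2 0.15, adjusted p = 5.34e-04) were still called higher, and E2f6 (log2 0.10, adjusted p = 0.0567) and Rnaseh2a (log2 0.01, adjusted p = 0.85) were not. On chromosomes 5 and 8, 6 of 8 of these pathway genes rose and 1 fell, where 55.6% of all tested genes rose and 7.95% fell. Elsewhere 6 of 51 rose and 31 fell, against 19.5% and 26.4% of all tested genes. Relative to the chromosome median, 32 were lower and 6 higher, against 21.2% and 19.7% of all tested genes.

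The remaining repressor-type E2F genes and the Rb family were named after their values had been seen. E2f4, on chromosome 8, rose from 110 ± 1.6 to 118.5 ± 2.41 CPM (SD, n = 4; log2 0.11, adjusted p = 0.00373) and E2f5 from 22.8 ± 0.582 to 26.3 ± 1.19 CPM (log2 0.20, adjusted p = 0.00419). Rbl2, the Rb-family partner of E2f4 and E2f5, also on chromosome 8, rose by 0.23 (adjusted p = 8.41e-04), Rbl1 fell by 0.10 (adjusted p = 0.0332) and Rb1 did not pass (log2 0.00, adjusted p = 0.999). Relative to its chromosome E2f4 was lower (log2 −0.10, adjusted p = 0.01), E2f5 stayed higher (log2 0.17, adjusted p = 0.0158) and Rbl2 did not pass (log2 0.02, adjusted p = 0.737).

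Next to licensing, 7 of 8 genes of the MCM ring and its kinase fell (87.5%, median −0.254), against 24.1% of all tested genes. Dbf4, the activating subunit of Cdc7, was 6.78-fold lower, from 1001 ± 10.8 to 148 ± 0.73 CPM (SD, n = 4; adjusted p = 7.19e-29), a change beyond those of all 48 members. Dbf4 lies on chromosome 5, and relative to that chromosome its log2 change was −2.90 (adjusted p = 2.66e-29). That comparison uses the median of the whole chromosome, and whether the near neighbours of Dbf4 moved with it was not examined here. The falls of Mcm2 to Mcm7 were far smaller, from 0.08 (Mcm7) to 0.35 (Mcm3) on the log2 scale. Of 34 mitosis genes, 22 fell and 1 rose (64.7% and 2.94%, median −0.115), against 24.1% and 23.8% of all tested genes. Among them Foxm1, a transcription factor of G2 and M phase, went down from 354 ± 9.82 to 282 ± 5.11 CPM (log2 −0.33, adjusted p = 3.4e-10). The mitosis median lies nearer 0 than that of the 48 genes, and whether these lists differ was not tested.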

How the data were processed

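Poly(A)-selected RNA of 8 libraries (4 scrambled, 4 knockdown) was prepared by a stranded Illumina kit from samples whose RNA integrity number was at least 7 and read as paired ends of 59 bases, per the labels' protocols. The table that the authors deposited holds raw counts, 1 row per gene symbol, of which 8403 rows were 0 in all libraries and 27 symbols had turned into dates. The build was mm10, and the tools named are STAR, Bowtie, R 4.2.1, DESeq2 1.36.0 and bcl2fastq 2.20, per the submitters' processing notes. How reads were counted, and whether by strand, is not given in the sources used here. Of the 48 genes, 23 share exon bases with another gene (18) or have a near copy elsewhere, found with blastn 2.17.0 as at least 95% identity over 300 bases (6), and their values are less certain. Among the other 25, 16 fell and 2 rose.

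The main test was that of edgeR 4.0.16 (R 4.3.3) after filterByExpr by group (minimum count 10, total 15), with TMM factors of 0.9905 to 1.01, glmQLFit and glmQLFTest on group, and Benjamini-Hochberg adjustment over all 11797 tested genes at 0.05. Levels are TMM-scaled CPM, as means ± SD, and 3 counts correspond to 0.129 to 0.155 CPM, which covers counting error only. The test was tested on simulated counts. Ratios of raw counts were compared over all 70 arrangements of the libraries by a two-sided exact permutation test in scipy 1.17.1. Same-numbered libraries of the groups did not deviate together (r of −0.0309 to 0.0114), so the fit has no block. GENCODE M21 gave positions in GRCm38, and 23311 symbols matched by current and 666 by older name.

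The 48 genes and all lists were chosen with earlier results of these data known. Per-library values are printed, in each role, for the 4 genes with the smallest adjusted p, the 1 with the largest, and any called against the majority of its role. Of the other pathway genes, the 4 lower and 4 higher with the smallest adjusted p were named, and from the MCM and mitosis lists the called gene with the smallest adjusted p. Alternatives were DESeq2 size factors, upper-quartile factors, no filter, a filter at 1 CPM in 4 libraries, DESeq2 1.42.0, limma-voom (limma 3.58.1), a replicate block, a threshold of 0.01, a fold test at 1.2, leaving out each library and, added after seeing the data, scaling to the chromosome median.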

Additional observations from a re-analysis of the deposited data

Results flagged for a closer look

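In 6 of 96 checks (48 genes in each group) 1 library lay far from the other 3 of its group, by a limit that chance passes in about 1 of 20 groups, and 4 of the 6 were in scrambled replicate 2. In that library Cdc6 was at 68.5 CPM against 77.0 to 78.5 CPM in the other 3, and Pola1 at 94.3 CPM against 103.1 to 103.5 CPM. In the same library Gmnn was at 77.1 CPM against 65.8 to 67.5 CPM, and Rrm1 at 412.5 CPM against 390.4 to 393.9 CPM. Fen1 was at 104.2 CPM in scrambled replicate 3 against 102.4 to 102.6 CPM, and Gins3 at 12.8 CPM in knockdown replicate 3 against 9.94 to 10.2 CPM. Cdc6, Pola1, Gmnn, Rrm1 and Fen1 stayed lower in the knockdown line at an adjusted p under 0.05 without the library named, and Gins3 did not pass with or without it.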

How the results depend on the processing

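Of 35 called members, 29 (28 lower, and Ccne1 higher) kept direction and call under every alternative but the test against a fold of 1.2; the others were Ccne2, Gins4, Pola2, Prim1, Pole and Rrm2. Members called lower numbered 30 to 34 with single libraries left out (21.7% to 25.3% of all tested genes), 30 with upper-quartile factors (21%), 32 with the replicate block (23.5%), 32 with DESeq2 (18.4%) and 28 at an adjusted p under 0.01 (18.3%), and 2 stayed higher with the replicate block. Upper-quartile factors called 2478 genes lower and 3188 higher. The cause of the changes below was not tested.

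Against a fold of 1.2, 523 genes were lower and 584 higher, with 10 members lower and 0 higher: 0 lower and 0 higher in the entry group, 4 lower and 0 higher in licensing, 2 lower at the fork, 0 in nucleotide supply, 2 in chromatin assembly and 2 among E2F factors. The other pathway genes gave 10 lower and 1 higher, the MCM list 3 lower, and mitosis genes 1 lower and 0 higher. Relative to the chromosome median, 1 member was higher, 1 entry gene lower, 0 licensing genes higher, 6 other pathway genes higher and 0 mitosis genes higher. At an adjusted p under 0.01, 1 entry gene was lower and 0 mitosis genes higher. With upper-quartile factors 1 nucleotide gene (Tyms) and 1 MCM gene were higher, and 1 MCM gene was higher with no filter and 1 with the replicate block. Mitosis genes called higher were 0 with DESeq2. Leaving out single libraries gave 0 to 1 higher MCM genes and 0 to 1 higher mitosis genes.

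Among members and ratios, signs turned only for those that had not passed, other than Gins4, which went to −0.02656 relative to its chromosome. In the other lists, E2f4 (log2 0.11, adjusted p = 0.00373) and Tfdp1 (log2 0.09, adjusted p = 0.00814) had been called higher. Relative to the chromosome, E2f4 and Tfdp1 were called lower, at −0.10 (adjusted p = 0.01) and −0.11 (adjusted p = 0.00197). Dctd (log2 0.17) and Cenpa (log2 0.09), also called higher, went to −0.04 and −0.05 there and did not pass. With single libraries left out, log2 changes ran from −0.05129 to 0.01322 for Cdk2, −0.02906 to 0.02853 for Orc2, −0.07045 to 0.07793 for Gins3, −0.02564 to 0.01413 for Rfc1, −0.007491 to 0.04005 for Rfc2, −0.01912 to 0.01916 for Rfc5 and −0.05276 to 0.03718 for Ung. The ratio of Chaf1a to Chaf1b ran from −0.02587 to 0.01042 and that of E2f1 to E2f8 from −0.109 to 0.009309. Relative to the chromosome, Orc2 was −0.04342, Gins3 −0.1838, Rfc2 −0.1188, Rfc5 −0.1324 and Tyms −0.07276. With upper-quartile factors Rfc1 was 0.01211 and Ung 0.003283. The ratio test cannot pass its threshold with a library left out (smallest p 0.0571) or as a paired test.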
